A study of Sus scrofa with 16 samples.

Results

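Nucleolar and ribosome biogenesis factors, 46 genes whose proteins transcribe ribosomal RNA, modify and cut it, and assemble it into ribosomal subunits, were followed in the liver of pigs on 3 dietary fats. The genes were chosen by symbol, with earlier results of these data known. Of the 46, 43 were found among the 25880 genes counted in every pig. NHP2, UTP14A and DDX10 were not matched to a counted gene and are not analysed here. By role, the 43 genes were 5 of RNA polymerase I transcription, 5 nucleolar scaffold and helper proteins, 3 of the box C/D and 2 of the box H/ACA small nucleolar ribonucleoproteins (snoRNPs), 14 of the small subunit and 14 of the large subunit.

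In the nucleolus, RNA polymerase I copies the ribosomal DNA repeats into a long precursor RNA. Box C/D snoRNPs methylate chosen nucleotides of it, and box H/ACA snoRNPs convert chosen uridines to pseudouridine. Separate sets of helicases, GTPases, nucleases and scaffold proteins carry the small and the large subunit to export and final cleavage in the cytoplasm. The liver makes most plasma proteins, and its ribosome production is known to follow nutrients and growth signals. Only polyadenylated mRNA was sequenced, so ribosomal RNA, snoRNAs and ribosomes themselves were not measured.

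The study asked how the kind of fat in feeds of like energy and protein content alters liver gene expression. Group R received rapeseed oil (5 pigs, 3 gilts and 2 barrows), group B beef tallow (5 pigs, 2 gilts and 3 barrows) and group C coconut oil (6 pigs, 3 gilts and 3 barrows). All were crossbreds of Polish Landrace x Polish Large White sows with Duroc x Pietrain boars, housed singly and fattened from about 60 to 118 kg, with no age given and no group without added fat. Each pig gave 1 library, of 3′ mRNA ends.

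Depth was 705669 to 1767671 reads on genes per pig, of which the 43 genes took 0.117% to 0.251%. Levels are given as CPM, counts scaled by library size and TMM normalisation, and 1 read was worth 0.554 to 1.52 CPM, depending on the pig. Reads with several alignments were counted on no gene, with medians of 26.5% of reads on rapeseed oil, 22.2% on beef tallow and 19.8% on coconut oil. Albumin mRNA, the defining hepatocyte product, had a median of 86609 CPM, while SERPINA1, another abundant liver product, was listed at 0 to 1.66 CPM, so a level near 0 in these files does not show that a gene is silent. Beef tallow pig 3 had the highest level of its diet in 17 of 29 members, against 28.8% of all genes. Coconut oil pig 4 was the highest of its diet in 12 of the 29 (18.5% of all genes). Coconut oil pig 3, the smallest library, was the lowest in 13 (23.0% of all genes). The tissue was sequenced whole, so fewer cells of a type and less RNA per cell cannot be told apart.

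Members were on average higher on beef tallow than on rapeseed oil, with coconut oil between them. The level of each gene was expressed as log2 CPM minus its mean over the 16 pigs and averaged over the 29 members kept by the filter on low counts. This average ran from -0.39 to -0.09 in group R, from 0.14 to 0.54 in group B and from -0.21 to 0.26 in group C. Groups R and B did not overlap, and group C overlapped with both. Beef tallow pig 3 had the highest value, and the other group B pigs ran from 0.14 to 0.27. Within the sexes the order of R and B was alike, with gilts at -0.35 to -0.09 in group R and 0.27 to 0.54 in group B, and barrows at -0.39 to -0.36 and 0.14 to 0.27. No p is given for this average, since the members were chosen with earlier results known.

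**Figure D1:**
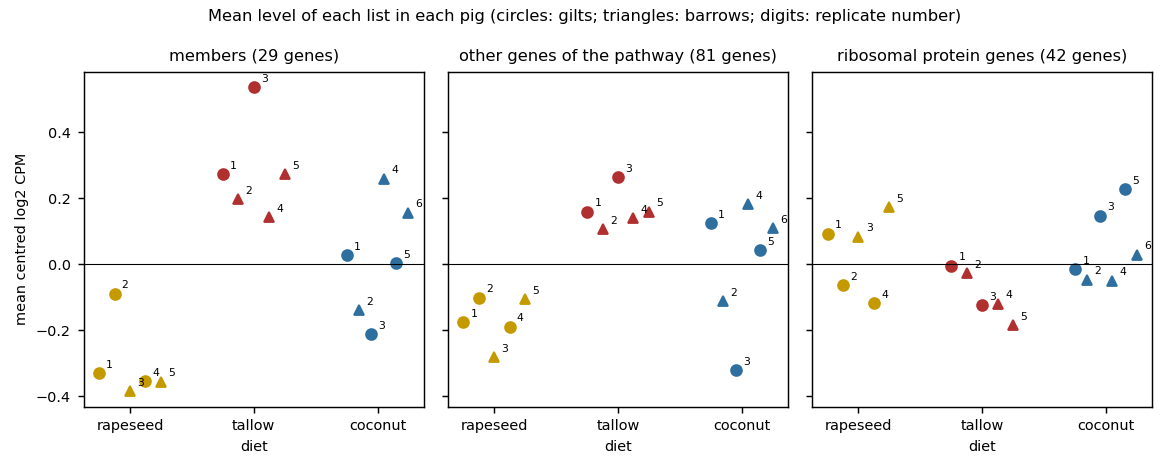
Mean centred log2 CPM (y axis) of the members, of other genes of the pathway and of ribosomal protein genes in each pig by diet (x axis). Circles are gilts, triangles are barrows and digits are replicate numbers. Members lie between -0.39 and -0.09 in group R and between 0.14 and 0.54 in group B, while ribosomal protein genes of these groups overlap.

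The mean was highest on beef tallow for 25 of these 29 members, on coconut oil for 4 and on rapeseed oil for 0. Of all 6891 genes kept, 35.4% had their highest mean on beef tallow, 29.996% on coconut oil and 34.6% on rapeseed oil. The lowest mean was on rapeseed oil for 23 of the 29 members and 34.7% of all genes. These counts leave out the members below the filter on low counts, which rest on few reads. Of those with reads, GAR1 had its highest mean CPM on rapeseed oil, and POLR1B, MYBBP1A, UTP18 and WDR43 on coconut oil. For POLR1A, NOP14, UTP4, UTP15, HEATR1, LTV1, BOP1 and RRS1 it was highest on beef tallow.

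On beef tallow against rapeseed oil (the reference), 4 of the 28 members tested passed an adjusted p of 0.05 in edgeR's quasi-likelihood test, all higher in group B, namely POLR1G, NOLC1, RSL1D1 and NOB1. Over all 6318 genes tested, 1.11% passed and 0.649% passed and were higher. At an unadjusted p below 0.05, 19 members were higher and 0 lower, where 8.33% of all genes were higher. The log2 fold change was positive for 27 of the 28 (51.5% of all genes), NOP56 being the exception, and its median was 0.66 against 0.01 over all genes. Since the filter on low counts can keep a gene for the group where it is high, the same was counted over all 41 members with a read in these pigs. Without the filter 6 members passed, adding DDX21 and GNL3 (0.727% of all genes passed and were higher), 20 had an unadjusted p below 0.05 and were higher (5.20% of all genes), and the median was 0.65. In 10 members the lowest pig of group B exceeded the highest of group R, namely DDX18, DDX21, DDX24, GNL2, NOB1, NOLC1, NOP58, POLR1G, RSL1D1 and UTP3, against 2.60% of all genes tested.

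DESeq2, the tool of the paper's own comparisons, called 9 of the 26 members that it gave an adjusted p. It added DDX21, DDX24, GNL3, NOP58 and UTP3, where 3.08% of all genes with an adjusted p passed. The paper names POLR1G (as CD3EAP), NOLC1, DDX21 and NOB1 among the genes higher on beef tallow in these pigs. In edgeR the number of members passing depended on single pigs. Leaving out 1 pig at a time, it ran from 1 to 5, with POLR1G alone passing without rapeseed oil pig 1, 3 or 5 or beef tallow pig 1, 2 or 4, and POLR1G and NOLC1 passing without rapeseed oil pig 2 or beef tallow pig 5. Without rapeseed oil pig 4 there were 4, with DDX21 and UTP3 in place of NOB1 and RSL1D1. Without beef tallow pig 3 there were 5, where 2.32% of all genes passed, and over all 10 such fits this share ran from 0.140% to 2.32%. In the fit without that pig, 15 members were higher at an unadjusted p below 0.05 (9.40% of all genes), and the median of the members was 0.53. Leaving it out moved the log2 fold change of 10 of the 28 members by over 1.5 times, none of which had passed. Among them PES1 went from 0.48 to 0.06, DDX56 from 0.83 to 0.39, TSR1 from 0.31 to 0.15, NPM1 from 0.13 to 0.01 and TCOF1 from 0.12 to 0.21.

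**Figure D2:**
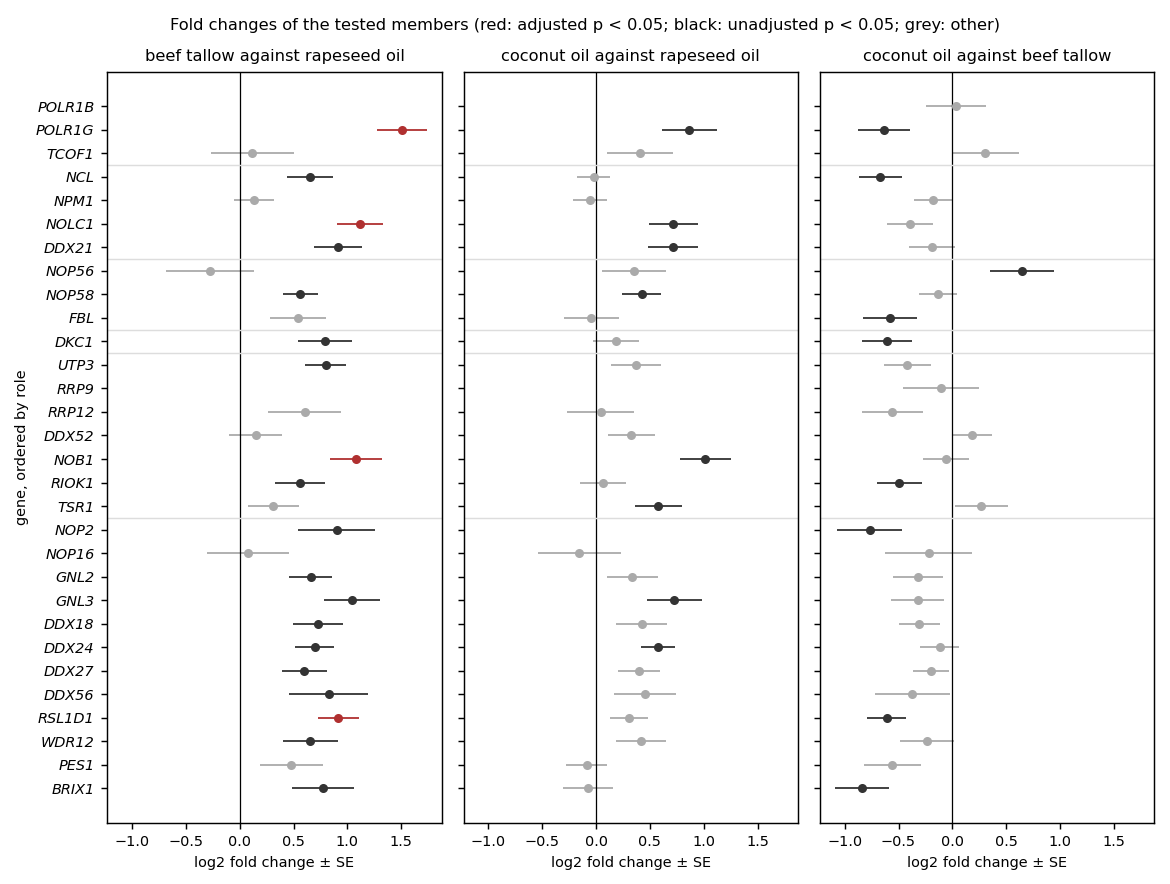
Log2 fold change (x axis) with its standard error for each member tested (y axis, ordered by role) in the 3 pairs of diets, by edgeR. Red marks an adjusted p below 0.05 (4 members, all in beef tallow against rapeseed oil), black an unadjusted p below 0.05 and grey the rest.

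Among the RNA polymerase I genes, POLR1G, a subunit of the enzyme itself, changed most. It is gene ENSSSCG00000020754 and lies on chromosome 6 from 51780709 to 51783696 of Sscrofa11.1, where RefSeq lists it under its older symbol CD3EAP. The pigs of group R had 12.3, 19.2, 17.8, 14.2 and 16.4 CPM, and those of group B had 36.1, 43.8, 63.2, 38.7 and 42.4 CPM. In group C the level ran from 15.2 to 44.1 CPM with a median of 29.3. All pigs of group B lay above all of group R, and group C spanned the space between and overlapped with both. The level rose from 15.99 ± 2.76 CPM (SD, n = 5) in group R to 44.9 ± 10.7 (n = 5) in group B, a log2 fold change of 1.50 (SE 0.23, edgeR adjusted p = 0.00767). It passed the threshold in all 10 fits that left out 1 pig, and without beef tallow pig 3 the log2 fold change was 1.34. In group C the mean was 28.7 ± 10.4 CPM (n = 6), and neither the difference from group R (log2 0.87, SE 0.26, edgeR adjusted p = 0.169) nor that from group B (log2 -0.64, SE 0.24, edgeR adjusted p = 0.349) passed.

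POLR1G overlaps the DNA repair gene ERCC1 by 160 bases in RefSeq. ERCC1 was not matched to a counted gene, and whether the counting used strand is not given in the sources used here, so reads of both genes at this spot cannot be told apart. The other polymerase I genes were measured less well. TCOF1, which encodes treacle, a nucleolar partner of RNA polymerase I, ran from 4.06 to 17.4 CPM over the 16 pigs, with a log2 fold change of 0.12 (SE 0.39) in group B. The second-largest subunit, POLR1B, had 164 reads in all and was tested only between coconut oil and beef tallow (log2 0.04, SE 0.28). The largest, POLR1A, had 30 reads in all, and POLR1C had 0 reads in the 16 pigs, which allows up to 0.165 CPM over them, counting error only.

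Of the scaffold proteins, NOLC1, a phosphoprotein that shuttles between the nucleolus and Cajal bodies and binds snoRNPs, was the one called. It is gene ENSSSCG00000010576, on chromosome 14 from 113154619 to 113166922. Group R had 31.9, 58.6, 30.5, 35.5 and 36.7 CPM, group B had 97.1, 89.8, 66.5, 97.3 and 69.6 CPM, and group C ran from 40.9 to 97.7 CPM with a median of 61.9. The lowest pig of group B was still above the highest of group R, which was rapeseed oil pig 2. The rise from 38.6 ± 11.4 to 84.0 ± 14.97 CPM was 1.12 on the log2 scale (SE 0.22, edgeR adjusted p = 0.0271). With 1 pig left out, NOLC1 passed in 4 of 10 fits, and the log2 fold change stayed between 1.05 and 1.31. Group C, at 63.7 ± 20.9 CPM, differed from group R by log2 0.72 (SE 0.23, edgeR adjusted p = 0.205).

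DDX21, a nucleolar RNA helicase that acts on both transcription and processing of ribosomal RNA (ENSSSCG00000010247, chromosome 14 from 72039985 to 72063778), lay close to the threshold. Group R had 38.4, 59.6, 39.4, 80.1 and 55.1 CPM, group B had 84.3, 108, 127, 111 and 82.7 CPM, and group C ran from 54.6 to 131 CPM with a median of 90.2. Rapeseed oil pig 4 came within a few CPM of the lowest group B pigs, and the groups did not overlap. The log2 fold change was 0.91 for group B (SE 0.22, edgeR adjusted p = 0.0604) and 0.72 for group C against R (SE 0.23, edgeR adjusted p = 0.206).

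Nucleolin, NCL, an abundant RNA-binding protein of the nucleolus (ENSSSCG00000016275, chromosome 15 from 132163453 to 132174214), had another profile. Group R had 154, 148, 129, 118 and 112 CPM, group B had 169, 135, 322, 211 and 201 CPM, and group C ran from 109 to 165 CPM with a median of 125. Beef tallow pig 3 was far above all other pigs, beef tallow pig 2 lay within the range of group R, and group C had nearly the range of group R. The difference of group B from group R (log2 0.65, SE 0.22, edgeR adjusted p = 0.149) and that of group C from group B (log2 -0.67, SE 0.20, edgeR adjusted p = 0.257) did not pass. Without beef tallow pig 3 they were 0.43 and -0.45. Group C and group R differed by log2 -0.02 (SE 0.15). NPM1, the histone and ribosomal protein chaperone nucleophosmin, ran from 215 to 410.3 CPM over all pigs, with log2 fold changes of 0.13, -0.06 and -0.18 in the 3 pairs and standard errors of 0.16 to 0.18. NPM1 has near-identical copies in mammalian genomes, so its counts are uncertain here. MYBBP1A had 92 reads in all and was not tested.

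**Figure D3:**
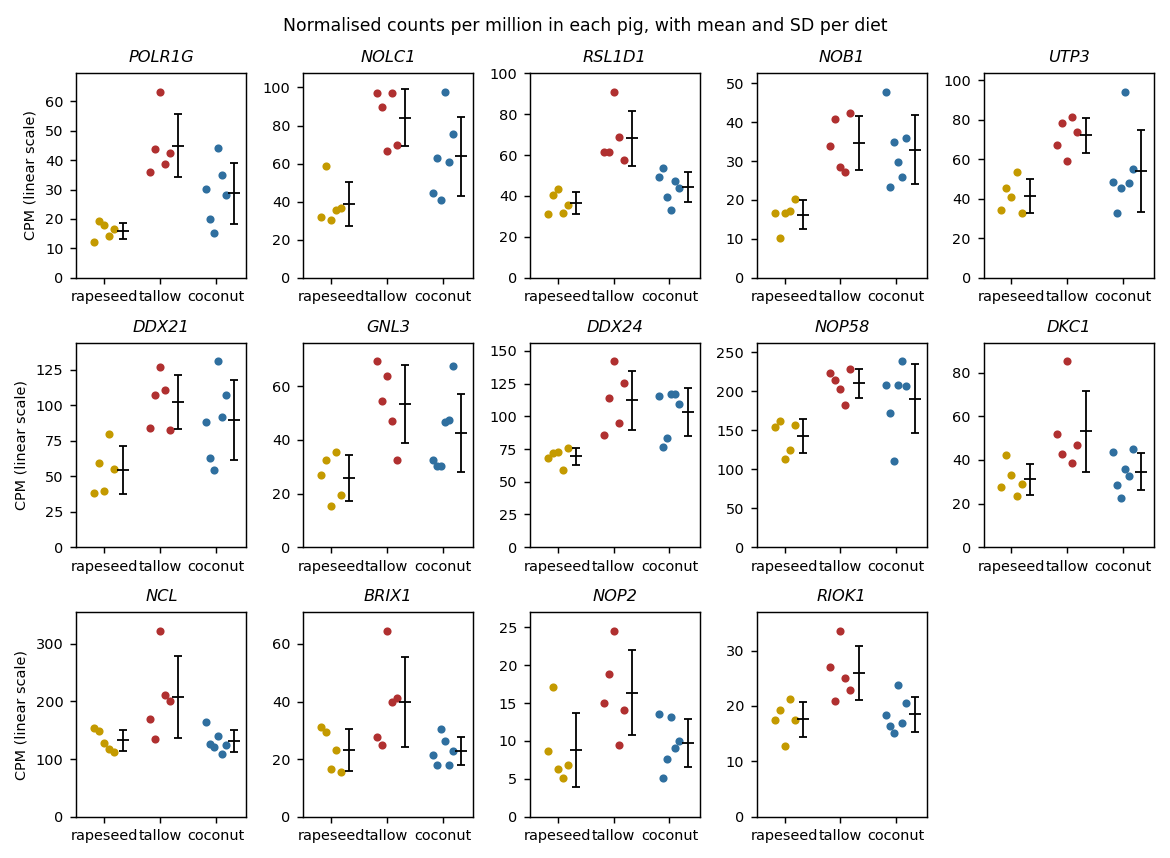
CPM on a linear scale (y axis) in each pig by diet (x axis) for the 14 members named by rule, with the mean and SD of each diet at the right of its points. NOB1 and DDX24 are above all rapeseed oil pigs in both other diets, while NCL and BRIX1 are high in beef tallow pig 3 and near the rapeseed oil level on coconut oil.

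Of the 3 box C/D snoRNP genes tested in group B against R, 2 had a positive and 1 a negative fold change, and 0 passed in edgeR. NOP58, a core protein of the particle (ENSSSCG00000022225, chromosome 15 from 105893589 to 105930458), had 154, 162, 113, 125 and 157 CPM in group R and 223, 214, 203, 182 and 228 CPM in group B, while group C ran from 111 to 238 CPM with a median of 207. Groups R and B did not overlap, and coconut oil pig 3, the smallest library, was the lowest of all 16. The log2 fold change was 0.56 in group B (SE 0.16, edgeR adjusted p = 0.109) and 0.42 in group C against R (SE 0.18, edgeR adjusted p = 0.328). NOP56, its partner in the particle, had 28.2 CPM in rapeseed oil pig 1 and 3.87 CPM in beef tallow pig 3, the highest and the lowest of the 16 pigs. Its log2 fold change was -0.27 in group B against R (SE 0.41) and 0.65 in group C against B (SE 0.30, edgeR adjusted p = 0.425), and -0.02 and 0.38 without that pig. FBL, the methyltransferase fibrillarin, ran from 15.2 to 54.2 CPM, with log2 fold changes of 0.54 in group B against R (SE 0.26, edgeR adjusted p = 0.347) and -0.04 in group C against R (SE 0.25), the former being 0.33 without beef tallow pig 3. NOP56 and FBL are named here after their values were seen.

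For the box H/ACA particle only DKC1, the pseudouridine synthase dyskerin (ENSSSCG00000012823, chromosome X from 125218928 to 125228881), had enough reads. Group R had 27.5, 42.4, 33.1, 23.3 and 29.0 CPM, group B had 51.9, 42.8, 85.2, 38.7 and 46.8 CPM, and group C ran from 22.7 to 44.9 CPM with a median of 34.1. Beef tallow pig 3 was far above the rest, and the groups overlapped at rapeseed oil pig 2. On beef tallow the log2 fold change was 0.79 (SE 0.25, edgeR adjusted p = 0.135) with all pigs and 0.55 without beef tallow pig 3. GAR1 had 11 reads in all.

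Among the small subunit factors, NOB1, the endonuclease that makes the last cut of 18S ribosomal RNA, rose in group B. It is gene ENSSSCG00000002753, on chromosome 6 from 17233863 to 17245451. The pigs of group R had 16.7, 10.1, 16.5, 17.2 and 20.3 CPM, those of group B had 33.9, 40.7, 28.4, 27.2 and 42.4 CPM, and group C ran from 23.3 to 47.8 CPM with a median of 32.3. All 11 pigs on beef tallow or coconut oil lay above the 5 pigs on rapeseed oil. The level was 16.2 ± 3.72 CPM in group R and 34.5 ± 6.93 in group B, a log2 fold change of 1.08 (SE 0.24, edgeR adjusted p = 0.0426). Group C was at 32.9 ± 8.79 CPM, log2 1.02 above group R (SE 0.24, edgeR adjusted p = 0.0897), and passed the threshold there without the filter on low counts. Groups B and C differed by log2 -0.06 (SE 0.22). The rise in group B held its size with 1 pig left out (log2 0.95 to 1.18), while its adjusted p passed in 1 of 10 such fits.

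UTP3, a component of the small subunit processome (ENSSSCG00000028466, chromosome 8 from 67475971 to 67477587), had 34.0, 45.4, 40.7, 53.7 and 32.9 CPM in group R and 67.0, 78.3, 59.4, 81.6 and 74.0 CPM in group B. In group C the level ran from 32.8 to 94.1 CPM with a median of 48.3. Groups R and B did not overlap, and within group C coconut oil pig 4 alone exceeded 55 CPM. The log2 fold change was 0.80 in group B (SE 0.19, edgeR adjusted p = 0.0577) and 0.37 in group C (SE 0.23, edgeR adjusted p = 0.52), both against group R, and without beef tallow pig 3 the former passed (log2 0.86, edgeR adjusted p = 0.0272).

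RIOK1, a kinase of late small subunit maturation (ENSSSCG00000001024, chromosome 7 from 4750766 to 4776678), had 17.4, 19.2, 12.7, 21.3 and 17.4 CPM in group R and 27.1, 20.9, 33.5, 25.1 and 22.8 CPM in group B, and ran from 15.2 to 23.8 CPM in group C with a median of 17.6. Groups R and B overlapped only at rapeseed oil pig 4 and beef tallow pig 2, and group C lay near group R. Its log2 fold changes of 0.56 in group B against R (SE 0.23, edgeR adjusted p = 0.257) and -0.49 in group C against B (SE 0.21, edgeR adjusted p = 0.393) did not pass. The other small subunit factors tested, RRP12, DDX52 and TSR1, had log2 fold changes of 0.60, 0.15 and 0.31 in group B against R. Of the pairs of diets, RRP9 was tested in group C against B alone, and NOP14, UTP4, UTP15, UTP18, WDR43, HEATR1 and LTV1 had 1 to 116 reads in all and were tested in no pair.

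Of the 12 large subunit members tested in group B against R, 10 were higher at an unadjusted p below 0.05 (8.33% of all genes). All 12 had a positive fold change (51.5% of all genes). This was the role with the most members tested. RSL1D1, a nucleolar protein with a ribosomal L1 domain (ENSSSCG00000023984, chromosome 3 from 31278394 to 31291205), was the one called. Group R had 31.1, 40.4, 43.3, 31.4 and 35.8 CPM, group B had 61.7, 61.6, 91.0, 69.1 and 57.6 CPM, and group C ran from 33.4 to 53.5 CPM with a median of 45.6. All pigs of group B lay above all other 11 pigs. The level rose from 36.4 ± 5.38 to 68.2 ± 13.4 CPM, by 0.92 on the log2 scale (SE 0.19, edgeR adjusted p = 0.0359), and 1 of 10 fits with 1 pig left out passed, the one without beef tallow pig 3 (log2 0.79). In group C, at 44.5 ± 7.27 CPM, the level differed from group B by log2 -0.61 (SE 0.18, edgeR adjusted p = 0.257) and from group R by log2 0.31 (SE 0.18, edgeR adjusted p = 0.479).

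GNL3, the nucleolar GTPase nucleostemin (ENSSSCG00000011449, chromosome 13 from 34820243 to 34828523), had 26.8, 32.3, 15.3, 35.5 and 19.3 CPM in group R and 69.2, 54.3, 63.9, 47.1 and 32.6 CPM in group B, and ran from 30.2 to 67.6 CPM in group C with a median of 39.6. Beef tallow pig 5 lay below rapeseed oil pig 4, so the groups overlapped. The log2 fold change was 1.05 in group B (SE 0.26, edgeR adjusted p = 0.0632) and 0.73 in group C (SE 0.26, edgeR adjusted p = 0.248), both against group R. GNL3 overlaps PBRM1 by 875 bases, and reads of that stretch are uncertain without the strand setting. The same limit holds for others, since 20 of the 43 members overlap another RefSeq gene. Among those tested are TSR1 (up to 3612 bases), NOP16 (1801) and DDX27 (958).

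DDX24, an RNA helicase of large subunit assembly (ENSSSCG00000002470, chromosome 7 from 115328122 to 115347355), was low in every pig on rapeseed oil. Group R had 68.1, 71.7, 72.5, 58.8 and 75.4 CPM, group B had 85.8, 114, 142, 95.2 and 125 CPM, and group C ran from 76.8 to 117 CPM with a median of 113. As for NOB1, all 11 pigs of groups B and C lay above the 5 pigs of group R. Log2 fold changes were 0.70 in group B (SE 0.18, edgeR adjusted p = 0.0777) and 0.58 in group C against R (SE 0.16, edgeR adjusted p = 0.14), and groups B and C differed by log2 -0.12 (SE 0.18).

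BRIX1, a Brix family factor of large subunit assembly (ENSSSCG00000016827, chromosome 16 from 20512281 to 20520579), followed the profile of NCL. Group R had 31.1, 29.3, 16.5, 23.3 and 15.5 CPM, group B had 27.8, 25.1, 64.5, 39.8 and 41.3 CPM, and group C ran from 18.04 to 30.3 CPM with a median of 22.1. Beef tallow pigs 1 and 2 lay within the range of group R, and all of group C did. The difference of group C from group B was the largest among the 30 members tested there (log2 -0.84, SE 0.25, edgeR adjusted p = 0.257), and without beef tallow pig 3 it was -0.57. BRIX1 in group B against R was at log2 0.77 (SE 0.29, edgeR adjusted p = 0.21) with all pigs and 0.50 without that pig.

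NOP2, a methyltransferase of 28S ribosomal RNA (ENSSSCG00000000696, chromosome 5 from 64106013 to 64115582), had 8.69, 17.2, 6.36, 5.07 and 6.77 CPM in group R and 15.1, 18.8, 24.5, 9.42 and 14.1 CPM in group B, and ran from 5.18 to 13.5 CPM in group C with a median of 9.49. Rapeseed oil pig 2 lay among the pigs of group B, and these levels rest on few reads. Log2 fold changes were 0.90 in group B against R (SE 0.36, edgeR adjusted p = 0.243) and -0.77 in group C against B (SE 0.30, edgeR adjusted p = 0.359), and NOP2 was too low to be tested in group C against R. A further 5 large subunit factors, DDX18, DDX27, DDX56, GNL2 and WDR12, had log2 fold changes of 0.60 to 0.83 in group B against R, with edgeR adjusted p between 0.125 and 0.297. PES1, which forms a complex with BOP1 and WDR12 needed for the large subunit, had 106 CPM in beef tallow pig 3 and 28.0 to 50.1 CPM in the 15 other pigs. NOP16 had a log2 fold change of 0.08 (SE 0.38), and BOP1 and RRS1, with 121 and 31 reads in all, were not tested.

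**Figure D4:**
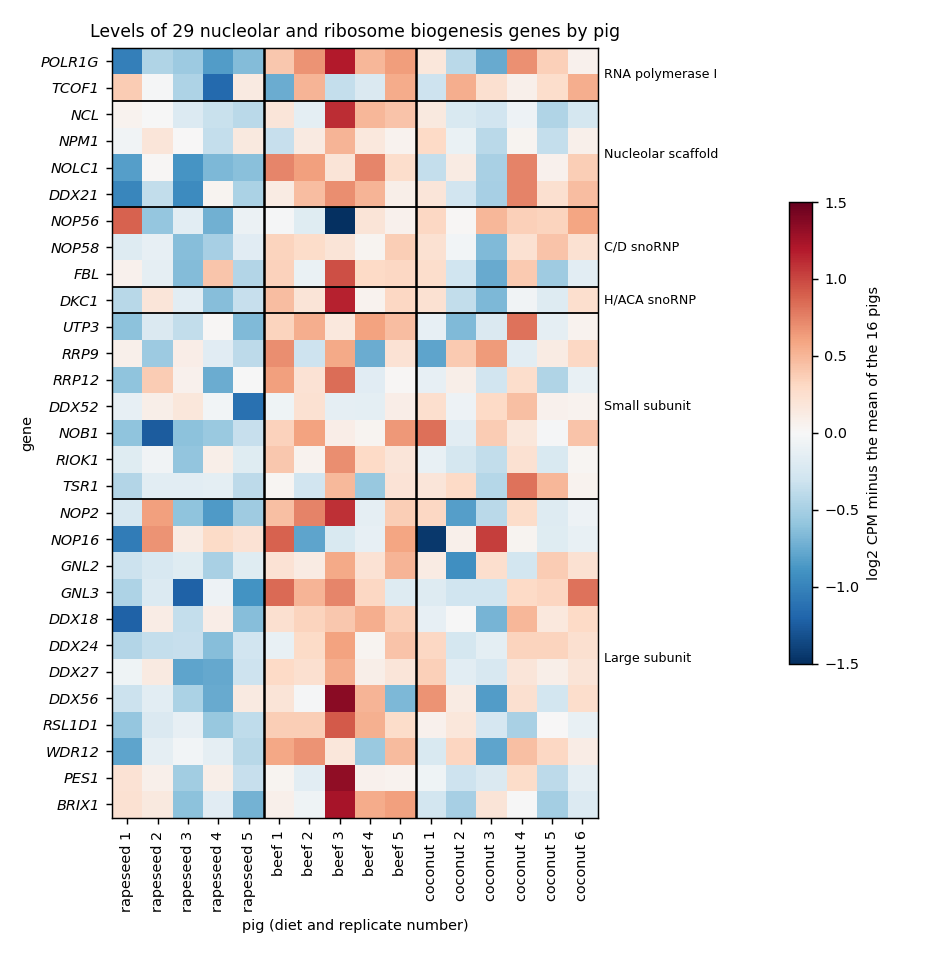
Log2 CPM minus the mean of the 16 pigs (colour, red above and blue below) for 29 members (rows, grouped by role) in each pig (columns, grouped by diet). Rapeseed oil columns are mostly blue and beef tallow columns mostly red, with beef tallow pig 3 the highest of its diet in 17 members, and NOP56 runs against them there.

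On coconut oil against rapeseed oil, 0 of 27 members tested passed an edgeR adjusted p of 0.05, where 0.138% of all 6528 genes did. At an unadjusted p below 0.05, 8 members were higher in group C and 0 lower, against 6.45% of all genes higher. These were DDX21, DDX24, GNL3, NOB1, NOLC1, NOP58, POLR1G and TSR1, and the last, which helps assemble the small subunit, had a log2 fold change of 0.58 (SE 0.22, edgeR adjusted p = 0.27). The median of the members was 0.37 on the log2 scale, against -0.001 over all genes, and 21 of 27 were positive (49.9% of all genes). Without the filter the median over 42 members with reads was 0.38, 8 were higher at an unadjusted p below 0.05 (4.51% of all genes), and 1, NOB1, passed the adjusted threshold (0.539% of all genes). DESeq2 called 1 of 13 members with an adjusted p here, DDX24, where 2.64% of all such genes passed. In 2 members, DDX24 and NOB1, groups R and C did not overlap, against 0.643% of all genes higher without overlap.

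Between group B and group C, with group B as the reference, 0 of 30 members passed in edgeR, where 0.0587% of all 6812 genes did. At an unadjusted p below 0.05, 8 members were lower in group C (BRIX1, DKC1, FBL, NCL, NOP2, POLR1G, RIOK1 and RSL1D1), against 6.21% of all genes, and 1, NOP56, was higher, against 5.24%. Without beef tallow pig 3, 5 of 29 were lower (BRIX1, NCL, NOLC1, RSL1D1 and UTP3), against 5.71% of all genes, and 0 higher, against 4.64%, with a median of -0.24. Leaving it out moved 13 of the fold changes by over 1.5 times or turned their sign, as for DDX56, from -0.37 to 0.07 on the log2 scale. DESeq2 called 0 of 20 members with an adjusted p, where 1.33% of all such genes passed, and 7 members had an unadjusted p below 0.05, where 5.76% of all genes did. The median was -0.31, against -0.005 over all genes, and 25 of 30 were negative (50.4% of all genes), while without the filter it was -0.29 over 42 members. RSL1D1 was the 1 member whose groups did not overlap, against 0.866% of all genes lower without overlap. All 3 comparisons share their control pigs with another, so their counts are not independent of each other.

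Tested for any difference among the 3 diets over all 16 pigs, 3 of 29 members passed in edgeR (NOB1, POLR1G and RSL1D1), where 0.711% of all genes did, and 17 had an unadjusted p below 0.05, where 15.9% did. Between barrows and gilts, with diet in the model, 0 of 28 members passed in edgeR (0.0786% of all genes) and 0 had an unadjusted p below 0.05 (4.90%). Without the filter on low counts, 0 of 42 passed (0.259% of all genes). At an unadjusted p below 0.05, 3 of the 42 (NOP14, PES1 and RRS1) were then lower in barrows (2.26%) and 0 higher (2.16%). DESeq2 also called 0 of 42 members between the sexes (0.0695% of all genes with an adjusted p), with 1 at an unadjusted p below 0.05 (2.44% of all genes), and called 8 of 25 among the diets (4.32%).

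Other genes of the pathway had smaller fold changes with the same sign in the median. The members include genes that the paper reports as higher on beef tallow in these pigs, such as GNL3 and NOP58. The sizes of these medians are therefore not a like comparison. This list held 123 matched genes, of RNA polymerase I control, snoRNP assembly, both subunits and the RNA exosome that trims precursor RNA. In group B against R, 74 were tested, 62 were positive (51.5% of all genes), 24 were higher at an unadjusted p below 0.05 (8.33%) and 0 passed in edgeR, with a median of 0.37 on the log2 scale. Without beef tallow pig 3, 16 of 76 were higher at an unadjusted p below 0.05 (9.40%), with a median of 0.28. Without the filter on low counts 1 of 119, NIFK, passed and was higher, where 0.727% of all genes were. The highest was RPF2, a partner of the 5S ribonucleoprotein (log2 1.00, SE 0.29, edgeR adjusted p = 0.119), and the lowest MTREX, the helicase that feeds RNA to the exosome (log2 -0.45, SE 0.37, edgeR adjusted p = 0.603). By role the medians were 0.43 for 22 small subunit genes, 0.36 for 28 large subunit genes, 0.39 for 9 polymerase I genes, 0.36 for 4 snoRNP genes and 0.21 for 11 exosome genes. UBTF, the factor that opens ribosomal DNA for RNA polymerase I, was the lowest of the polymerase I genes (log2 -0.22, SE 0.20), and POLR1E, the partner subunit of POLR1G, the highest (log2 0.91, SE 0.45, edgeR adjusted p = 0.354). In group C against R, 59 of 77 were positive (49.9% of all genes), 12 were higher (6.45%) and 1 lower at an unadjusted p below 0.05, and 0 passed in edgeR (median 0.20), and in group C against B, 62 of 85 were negative (50.4%), 6 were lower (6.21%) and 0 higher at an unadjusted p below 0.05, and 0 passed (median -0.17).

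Ribosomal protein genes, the structural parts of the finished subunits, did not share this sign in group B. Of the 46 matched, 42 were tested in group B against R, 31 had a negative and 11 a positive fold change, 0 passed in edgeR and 0 had an unadjusted p below 0.05, and the median was -0.11 on the log2 scale. Without beef tallow pig 3, 34 were negative (3205 of all 6436 genes). At an unadjusted p below 0.05, 3 were then lower (522 of all 6436 genes) and 0 higher (605 of them). The median was -0.004 in group C against R and 0.10 in group C against B, again with 0 passing in edgeR and with 4 and 6 genes at an unadjusted p below 0.05 (13.0% and 11.5% of all genes). The lowest in group C against R was RPS3 (log2 -0.62, SE 0.14, edgeR adjusted p = 0.0849). The paper, with DESeq2, lists RPS3 as lower on coconut oil than on rapeseed oil. It also lists RPS21 as higher on coconut oil than on beef tallow. DESeq2 calls are not counted for this list here. Many ribosomal protein genes have near-identical copies, and only 46 of 79 were matched, so these values are uncertain.

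**Figure D5:**
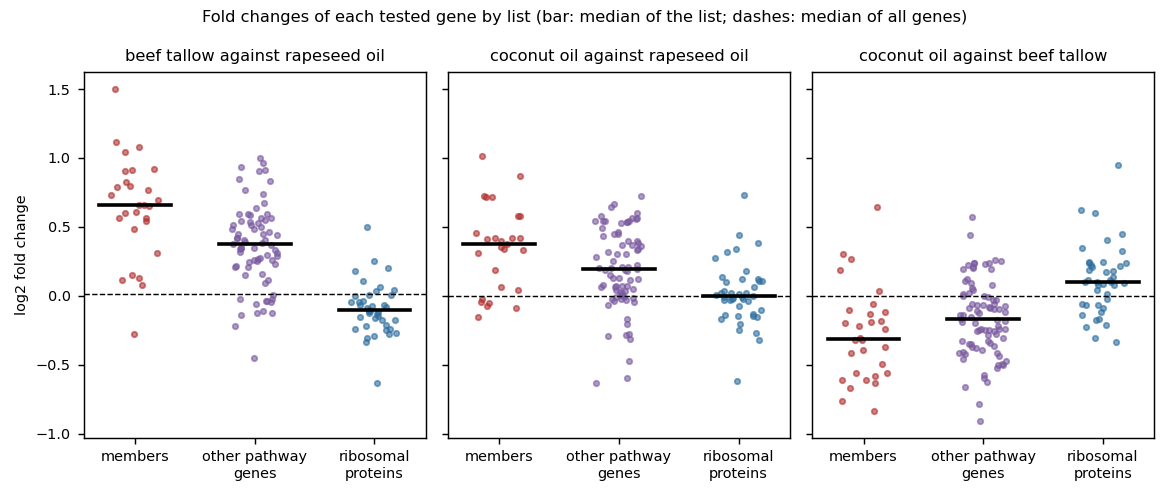
Log2 fold change (y axis) of each tested gene among the members, the other pathway genes and the ribosomal protein genes in the 3 pairs of diets, with the median of each list as a bar and that of all genes as dashes. In beef tallow against rapeseed oil the medians were 0.66, 0.37 and -0.11.

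Markers of other liver cells were measured beside these genes, and 3 of the 35 tested in group B against R passed in edgeR. Over all genes tested in this pair, 1.11% passed, 51.5% had a positive and 48.5% a negative fold change. Of the Kupffer cell markers, 7 of 8 tested had a positive fold change with all pigs (median 0.25 on the log2 scale). Without beef tallow pig 3, 5 of 8 did (median 0.05), as did 3231 of all 6436 genes. CD163, a scavenger receptor, rose (log2 0.79, edgeR adjusted p = 0.0414, and log2 0.79 without that pig). The sum of the 9 matched ran from 811 to 1352 CPM in group R, from 1024 to 1967 in group B and from 804 to 1066 in group C, with CSF1R near 0. In group C against B, 7 of 8 Kupffer markers were negative (50.4% of all genes), with a median of -0.47. At an unadjusted p below 0.05, 4 were lower (6.21% of all genes) and 0 higher, and 0 passed in edgeR. Without beef tallow pig 3, 6 of 8 were negative (3358 of all 6783 genes), with a median of -0.28. Of the 5 endothelial markers tested in group B against R, 3 were positive and 2 negative. LYVE1, a sinusoidal endothelial marker, rose in group B (log2 0.88, edgeR adjusted p = 0.0495), while KDR, a receptor for vascular growth factor, was at log2 -0.50 (edgeR adjusted p = 0.394). In group C against R, LYVE1 was also higher and passed without the filter on low counts (0.539% of all genes). With the filter, 0 of the 5 endothelial markers tested passed there. The endothelial sum ran from 297 to 478 CPM in group R, 381 to 482 in group B and 342 to 435 in group C. Of the 7 hepatocyte markers tested, 3 were positive and 4 negative. TTR, a hepatocyte product, fell by 0.78 on the log2 scale (edgeR adjusted p = 0.0426, and 0.0507 without the filter on low counts), while FGB, a fibrinogen chain, was at 0.25 (edgeR adjusted p = 0.59), and the hepatocyte sum overlapped, at 126387 to 185875 CPM in group R and 79211 to 178701 in group B.

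Of the 6 stellate and perivascular markers tested in group B against R, 1 was positive (51.5% of all genes) and 5 negative (48.5%). In edgeR 0 passed (1.11%). The highest was ACTA2, a smooth muscle actin (log2 1.42, edgeR adjusted p = 0.224), and the lowest LRAT, a retinol esterifying enzyme (log2 -0.77, edgeR adjusted p = 0.192), both with an unadjusted p below 0.05. Without the filter on low counts ACTA2 and RGS5, a pericyte marker, passed (log2 1.42 and -2.38), where 1.26% of all genes did. Without beef tallow pig 3, RGS5 passed (log2 -2.85), where 2.32% of all genes did. In group C against R, RGS5 was also lower and passed without the filter (0.539% of all genes). The sum of the 8 matched ran from 356 to 859 CPM in group R, 315 to 794 in group B and 318 to 738 in group C. Of 8 matched genes of cycling cells, 2 had enough reads to be tested in group B against R, both with a negative fold change and 0 passing in edgeR, and their sum ran from 29.3 to 43.6 CPM in group R and from 24.5 to 32.6 in group B. The cholangiocyte, lymphoid and erythroid lists had 1, 3 and 3 genes tested, with 0 passing in edgeR and 0 at an unadjusted p below 0.05. The part of these markers in the members' levels was not tested.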

How the data were processed

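Liver RNA of 16 pigs was sequenced with a 3′ mRNA kit. Per the labels and the paper's methods, the authors mapped the reads with TopHat to Sscrofa11.1 and counted them per Ensembl gene with HTSeq, and the deposited values are raw counts per gene, not normalised. The paper then compared the diets with DESeq2. The strand setting of the counting is not given in the sources used here. The 5 tallies of unassigned reads were left out of library sizes, and 25880 genes remained, of which 14857 had a symbol. No 2 of the 120 pairs of libraries were identical.

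Each pair of diets was fitted on its own pigs with edgeR 4.0.16 (R 4.3.3, quasi-likelihood test, TMM, filterByExpr at 10 reads per pig and 15 in total), and p-values were adjusted by Benjamini-Hochberg over all genes tested, at 0.05. Standard errors are the log2 fold change over the square root of F. Log2 CPM used a prior count of 2. The main fits did not pair pigs by replicate number. Nothing in the labels says how litters were spread over the diets. The script was tested on simulated data. Depth was 705669 to 1767671 reads per pig on genes, and intervals given for a count of 0 (3 reads) cover counting error only.

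Members and lists were chosen with earlier results of these data known. Pig by pig, the text gives 14 members: those past the adjusted threshold in a pair, those with an unadjusted p below 0.05 in both pairs sharing a diet, the 3 smallest p-values of a pair, and 5 of those that the paper names (GNL3, RSL1D1, UTP3, DDX24 and NOP58). From other lists it gives genes past the threshold and the lowest or highest fold change. Positions are those of RefSeq, matched by symbol. DESeq2 1.42.0, RLE, no filter, 1 fit of all pigs, the replicate number as a block, sex as a covariate, thinned counts and leaving out each pig were alternatives, and fits of gilts or barrows alone were chosen after seeing the data.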

Additional observations from a re-analysis of the deposited data

Results flagged for a closer look

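Within the diets, 6 of 87 groups of values of single members held 1 pig whose gap to the next was larger than Dixon's 95% limit, where chance gives about 1 in 20. Beef tallow pig 3 was the high pig in 3 of them, POLR1G with 63.2 CPM (next 43.8), DKC1 with 85.2 CPM (next 51.9) and PES1 with 105.8 CPM (next 42.9). This pig also had 33.2% of reads with several alignments, the most of its diet, and its part in these values was not tested. Rapeseed oil pig 2 had 58.6 CPM for NOLC1 (next 36.7), rapeseed oil pig 1 had 28.2 CPM for NOP56 (next 13.5), and coconut oil pig 4 had 94.1 CPM for UTP3 (next 54.8). Without rapeseed oil pig 2, NOLC1 still passed the edgeR threshold in group B against R.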

How the results depend on the processing

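In beef tallow against rapeseed oil, where 4 members passed, DESeq2 called 9 (adding DDX21, DDX24, GNL3, NOP58 and UTP3), counts thinned to the smallest library left 2 (POLR1G and NOLC1, with 1.18% of all genes), gilts alone gave 0 (0% of all genes) and barrows alone 0 (0.468%), and leaving out 1 pig gave 1 to 5 (0.140% to 2.32%), where 1.11% passed with all pigs. The median of the members stayed between 0.53 and 0.72 with 1 pig left out. In coconut oil against rapeseed oil, where 0 passed, DESeq2 called 1 and no filter 1, with 0 to 0 when 1 pig was left out, and the median was 0.53 in barrows alone and 0.29 to 0.43 with 1 pig left out. In coconut oil against beef tallow the median was -0.49 in gilts alone, -0.13 in barrows alone and -0.37 to -0.24 with 1 pig left out. For any difference among the diets, where 3 passed, no filter gave 6 (1.20% of all genes) and DESeq2 gave 8. The cause of these shifts was not tested.

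With the replicate number as a block, 2 members passed in beef tallow against rapeseed oil (POLR1G and NOLC1, with 0.554% of all genes) and 0 in each other pair. Same-numbered pigs deviated together little (correlations of -0.25 to 0.14 in the 3 pairs). In coconut oil against rapeseed oil, 3 of 5 pigs correlated best with the pig of their own number, against 1 of 5 in each other pair. These values do not settle whether the numbers pair the pigs.

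Among the 14 members given pig by pig, signs turned only for differences that had not passed. Against rapeseed oil, coconut oil turned NCL to 0.050 in thinned counts and 0.11 in barrows (-0.10 to 0.045 with 1 pig left out), BRIX1 to 0.47 in barrows (-0.19 to 0.068) and RIOK1 to -0.17 in gilts (-0.022 to 0.14). Against beef tallow it turned NOB1 to 0.094 in thinned counts and 0.22 in gilts (-0.20 to 0.025) and GNL3 to 0.13 in barrows. Among the other members in that pair, leaving out beef tallow pig 3 turned DDX56 from -0.37 to 0.07 and RRP9 from -0.11 to 0.03. Depth limits the members with few reads, 15 of which were not tested in beef tallow against rapeseed oil.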
